A study of Homo sapiens with 6 samples.

Results

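The ETS genes form a family of 28 human transcription factors, and 10 of them were examined in Huh7, a cell line grown from a human liver cancer. The 10 are ETS1, ETS2, ELF1, ELF3, ELK3, ETV1, ETV4, ETV5, ETV6 and GABPA, taken by gene name from a table of 79172 gene names. They were chosen by name with their fold changes and calls in the comparison described here already known, so their values are given as a description, without p-values. RNA-seq covered 3 libraries of Huh7 cells labelled as overexpressing HK1, the gene of hexokinase 1, and 3 libraries labelled Control. All cells are of the same line, with no drug or time point in the labels. How HK1 was introduced, whether the cells are 1 clone and what the control cells received are not given in the sources used here, and no label ties the replicates to cultures of their own. Any p-value then measures the spread between these libraries, which may be technical.

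ETS factors share a winged helix-turn-helix domain that binds DNA around a GGAA core. Several, among them ETS1, ETS2 and the ETV1, ETV4 and ETV5 group, are phosphorylated by ERK kinases at the end of the RAS pathway, and ELK3 binds promoters together with the serum response factor SRF. ETS factors are known as activators or repressors of genes for cell division, invasion and vessel growth, GABPA as an activator of nuclear genes for mitochondria, and ELF3 as a factor of epithelial cells.

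Library totals ran from 16771835 to 20823072 counts. HK1 stood at 489.8, 509.9 and 525.8 counts per 1000000 of the library (CPM) in HK1-overexpressing libraries and at 0.654, 0.880 and 0.789 CPM in Control libraries, so the labels and the targeted gene go together. All 10 hepatocyte markers examined were above 1 CPM. Of these, 7 were called lower by the edgeR test used for all genes, which called 4.15% of all tested genes lower. The 7 were ALB, AFP, APOA1, TTR, TF, FGB and GPC3, while APOB, SERPINA1 and HNF4A were not called. The summed level of the 10 markers was 10790 to 11140 CPM in HK1-overexpressing and 13970 to 14850 CPM in Control libraries. That sum was mostly ALB and APOB. Of 6 endothelial markers 3 had no count and 5 were under 1 CPM (sums of 4.53 to 5.43 CPM in HK1-overexpressing and 4.02 to 6.25 CPM in Control libraries). Of 6 leukocyte markers 4 were under 1 CPM (46.7 to 51.3 CPM in HK1-overexpressing and 64.5 to 74.3 CPM in Control libraries), the sum being mostly LYZ. Of 6 fibroblast and stellate markers 5 were under 1 CPM (17.3 to 20.1 CPM in HK1-overexpressing and 11.9 to 13.7 CPM in Control libraries), the sum being mostly COL1A2. The part of these marker levels in the values below was not tested. In bulk RNA, fewer cells of a type and less RNA per cell cannot be told apart.

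Promoter sequence was at hand for 7 of the 10 genes (RefSeq, GRCh38.p14), and not for ETS1, ETV4 and ETV5. The 7 genes had 16 windows of 300 bases, running from 250 bases before to 50 after an annotated start, and some windows of ETV1 overlap. The first window of ELK3 is shown because ELK3 was higher in HK1-overexpressing cells, that of ELF3 because ELF3 was lower, and that of GABPA because it alone among the 16 holds the ETS-type word CCGGAAG. Capitals mark matches, on either strand, to the words searched. These were the ETS-type word CCGGAAG, the TATA-type word TATAAA, the AP-1 word TGACTCA with its reverse complement TGAGTCA, and the CIC-type words TGAATGA and TGAATGG and TCAATGA and TCAATGG. They read 5′ to 3′ on the plus strand of hg38, at chr12:96194125-96194424 for ELK3, chr1:202010337-202010636 for ELF3 and chr21:25734722-25735021 for GABPA.
ELK3: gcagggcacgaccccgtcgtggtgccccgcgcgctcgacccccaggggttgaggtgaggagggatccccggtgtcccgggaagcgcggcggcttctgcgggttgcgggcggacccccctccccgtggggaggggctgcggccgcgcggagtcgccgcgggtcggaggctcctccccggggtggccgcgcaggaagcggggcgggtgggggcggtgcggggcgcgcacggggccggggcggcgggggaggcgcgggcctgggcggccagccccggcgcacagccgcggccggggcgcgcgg
ELF3: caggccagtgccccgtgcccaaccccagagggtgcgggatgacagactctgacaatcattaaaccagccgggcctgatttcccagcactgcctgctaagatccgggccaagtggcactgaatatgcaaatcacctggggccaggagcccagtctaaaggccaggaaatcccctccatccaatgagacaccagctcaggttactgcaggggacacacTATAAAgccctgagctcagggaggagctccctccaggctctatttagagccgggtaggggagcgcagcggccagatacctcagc
GABPA: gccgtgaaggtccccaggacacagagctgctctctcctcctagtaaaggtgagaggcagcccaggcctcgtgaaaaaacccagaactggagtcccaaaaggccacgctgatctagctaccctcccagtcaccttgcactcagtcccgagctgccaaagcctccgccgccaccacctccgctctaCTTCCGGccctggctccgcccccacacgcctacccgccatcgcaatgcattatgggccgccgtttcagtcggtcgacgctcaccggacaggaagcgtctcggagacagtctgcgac

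The ELK3 window had a GC content of 83.7% and no capital, the ELF3 window 59% and a TATAAA word whose first base lies at -34 from the annotated start. The GABPA window had 62.7% GC. Its ETS-type word lies on the minus strand and appears in the plus-strand letters as CTTCCGG, with its first printed base at -66. Of 35116 windows of the same length, 10.3% held CCGGAAG, against 1 of the 16 windows of these genes. TATAAA stood in 11.5% of all windows and in 2 of the 16, the other being a window of ELF1 with the word at -29. Any of the 4 CIC-type words stood in 10.7% of all windows and in 2 of the 16, with TGAATGG at -125 in a window of ETV1 and TCAATGA at 31 in that of ETV6. The AP-1 word stood in 4.95% of all windows and in none of the 16. A match is a description of the letters and not a binding site.

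ETS1, the founding member of the family and an activator that ERK phosphorylates, differed most of the 10. It was counted over 7149 bases of exon on the minus strand of chromosome 11, from 128458761 to 128587558 (hg38). Its level was 34.7, 35.6 and 36.3 CPM in HK1-overexpressing libraries and 21.02, 16.8 and 19.1 CPM in Control libraries. All 3 HK1-overexpressing libraries lay far above the highest Control library. The log2 fold change of HK1-overexpressing over Control was 0.90 with a standard error (SE) of 0.0813, which ranked 176 from the top of 16734 tested genes. FLI1, an ETS gene of blood and vessel cells that lies 98976 bases from ETS1, had no count in any library. The nearest tested genes on either side of ETS1, DNAJB6P1 and ARHGAP32, had log2 fold changes of -0.01 and 0.18 and were not called by the edgeR quasi-likelihood test (adjusted p = 0.946 and 0.478). By a fixed rule, the genes of at least 10 CPM whose centred log2 profile over the 6 libraries was nearest to that of ETS1 were RAB27B, MYOF, CYP1B1, NRP2 and CD9. Their root mean square differences from ETS1 were 0.0682 to 0.0763 on the log2 scale among 9445 genes compared.

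ETS2, the closest relative of ETS1, did not follow it. It lies on the plus strand of chromosome 21 from 38805183 to 38824955 (hg38). Its level was 108.4, 109.1 and 107.1 CPM in HK1-overexpressing libraries and 116.8, 111.2 and 114.2 CPM in Control libraries. The groups did not overlap, but the difference was small, with a log2 fold change of -0.08 (SE 0.04996), and ETS2 was not called. Per kilobase of exon (RPKM, the CPM divided by exon length), the ratio of ETS1 to ETS2 within a library was 0.223, 0.227 and 0.236 in HK1-overexpressing and 0.125, 0.105 and 0.117 in Control libraries. ETS2 thus stayed the more abundant of the pair in every library. ERG, the ETS gene that lies 143402 bases from ETS2, had no count.

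**Figure D1:**
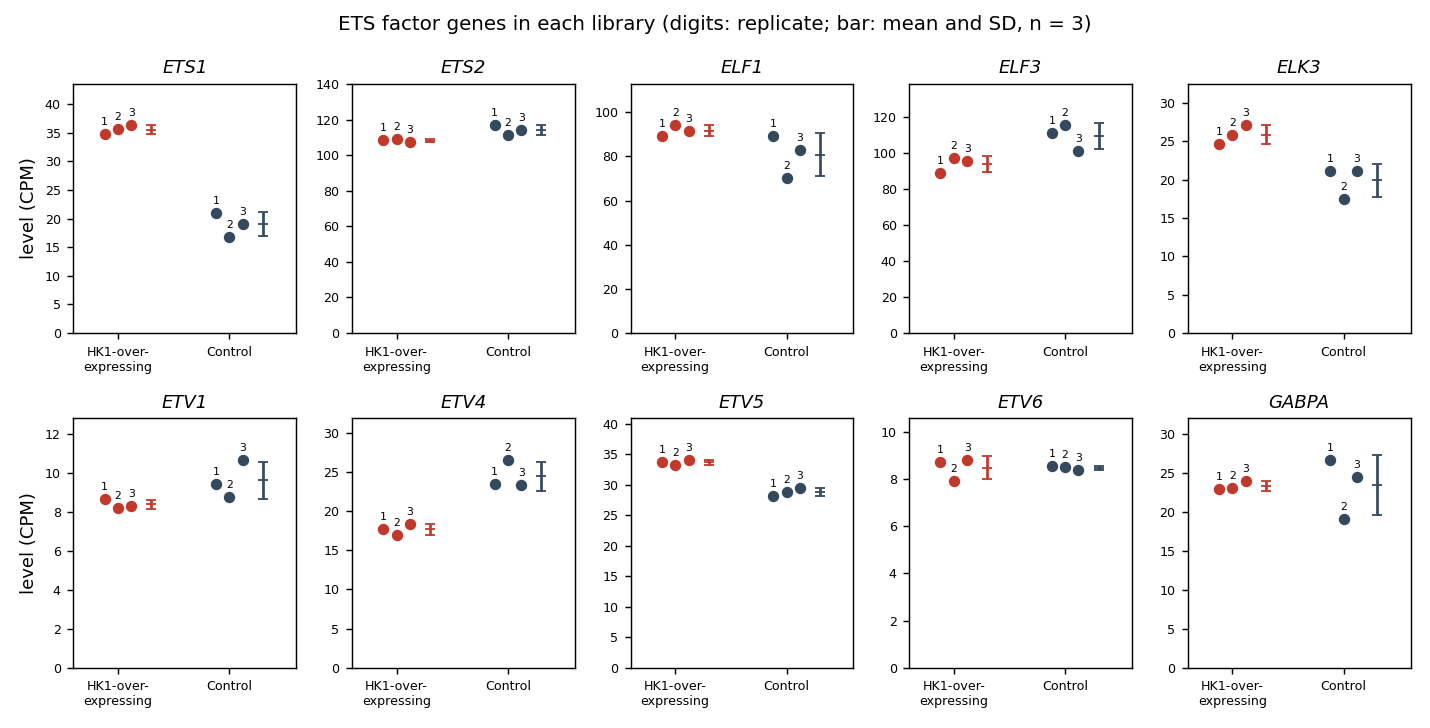
Level of each of the 10 ETS genes in CPM (vertical axes, each from 0) in HK1-overexpressing and Control libraries, with 1 point per library, its replicate number above it, and the mean and SD of 3 libraries beside the points. ETS1 at 34.7 to 36.3 CPM lies above its Control range of 16.8 to 21.02 CPM, ETV4 at 16.98 to 18.4 CPM lies below its Control range of 23.4 to 26.5 CPM, and ETV6 and GABPA overlap.

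In the PEA3 group, which is ETV1, ETV4 and ETV5, ETV4 fell and ETV5 rose in HK1-overexpressing cells. These genes are known as targets that the repressor CIC holds down and that ERK signalling releases. ETV4, on the minus strand of chromosome 17 from 43527844 to 43579620, was at 17.7, 16.98 and 18.4 CPM in HK1-overexpressing libraries and at 23.4, 26.5 and 23.4 CPM in Control libraries. It was lower in every HK1-overexpressing library than in any Control library, with a log2 fold change of -0.46 (SE 0.0793), which ranked 477 from the lowest of all tested genes. ETV5, on the minus strand of chromosome 3 from 186046314 to 186110318, was at 33.7, 33.2 and 34.1 CPM in HK1-overexpressing libraries and at 28.1, 28.8 and 29.4 CPM in Control libraries. It was higher without overlap, with a log2 fold change of 0.23 (SE 0.0640). ETV1, on the minus strand of chromosome 7 from 13891229 to 13991425, was at 8.66, 8.22 and 8.29 CPM in HK1-overexpressing libraries and at 9.45, 8.80 and 10.7 CPM in Control libraries. The groups of ETV1 did not overlap, although the lowest Control library came close, and the log2 fold change of -0.20 (SE 0.101) was not called. DGKB, a diacylglycerol kinase gene 153624 bases from ETV1, was the only nearest tested neighbour of the 10 genes to be called (log2 -1.39, edgeR adjusted p = 0.000162).

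The order of ETV4 and ETV5 differed between the groups on the per-kilobase scale. The ratio of ETV5 to ETV4 was 1.16, 1.19 and 1.13 in HK1-overexpressing libraries and 0.732, 0.661 and 0.767 in Control libraries. On this scale ETV5 was thus the higher of the pair in each HK1-overexpressing library and the lower in each Control library. That order depends on the exon lengths used, 5773 bases for ETV5 and 3515 for ETV4, which may differ from those of the expressed transcripts. In CPM, ETV5 was the higher in every library. ETV1 stayed the lowest of the group, at 0.165 to 0.179 of ETV4 in HK1-overexpressing and 0.122 to 0.168 of ETV4 in Control libraries, ranges that overlap. ETV4 shares 68 bases of exon, 1.94% of its length, with DHX8 on the opposite strand, and the counting used no strand option. DHX8 itself had a log2 fold change of -0.08 and was not called (edgeR adjusted p = 0.502).

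**Figure D2:**
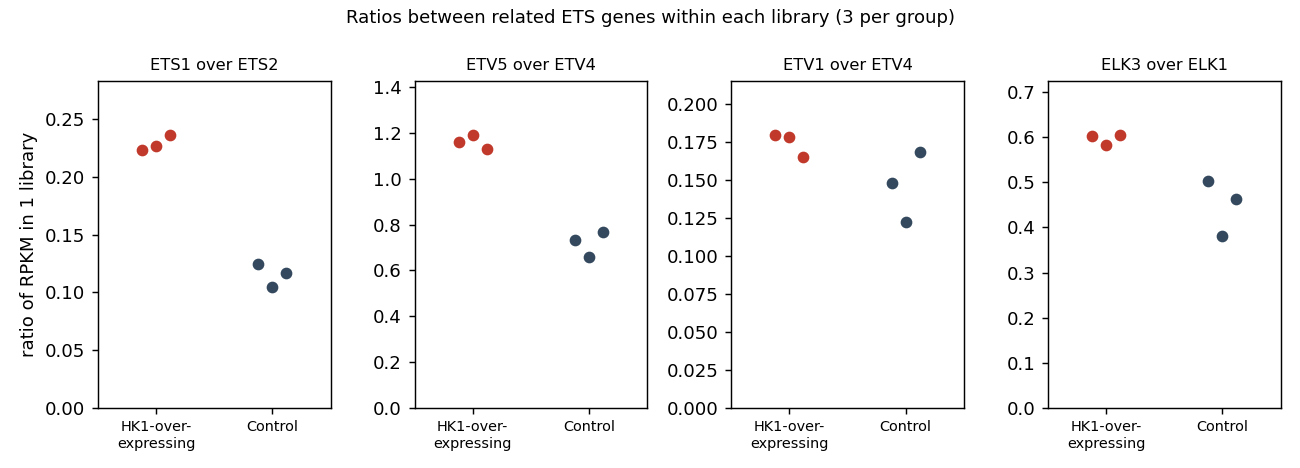
Ratio of the RPKM of related ETS genes within each library (vertical axes, each from 0), with 3 points for HK1-overexpressing and 3 for Control libraries. The ratio of ETV5 to ETV4 is 1.13 to 1.19 in HK1-overexpressing libraries and 0.661 to 0.767 in Control libraries, while that of ETV1 to ETV4 overlaps between the groups.

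ELK3, a ternary complex factor that is known as a repressor until ERK phosphorylates it, was higher in HK1-overexpressing cells. It lies on the plus strand of chromosome 12 from 96194375 to 96269824. Its level was 24.6, 25.8 and 27.1 CPM in HK1-overexpressing libraries and 21.2, 17.4 and 21.2 CPM in Control libraries. The groups did not overlap, and the log2 fold change was 0.37 (SE 0.0858). The ratio of ELK3 to its relative ELK1 was 0.602, 0.584 and 0.604 per kilobase in HK1-overexpressing and 0.503, 0.381 and 0.463 in Control libraries. ELK1 and ELK4, the other ternary complex factors, were at log2 fold changes of -0.04 (SE 0.0696, edgeR adjusted p = 0.808) and 0.11 (SE 0.0712, edgeR adjusted p = 0.388).

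Of the ELF genes, ELF3, a factor of epithelial cells, was lower and ELF1 was not called. ELF3, on the plus strand of chromosome 1 from 202007945 to 202017183, was at 88.8, 97.1 and 95.5 CPM in HK1-overexpressing libraries and at 110.8, 115.4 and 101.3 CPM in Control libraries. The groups did not overlap, by a margin of a few CPM between HK1-overexpressing replicate 2 and Control replicate 3, and the log2 fold change was -0.22 (SE 0.0608). ELF3 shares 890 bases of exon, 12.4% of its length, with the antisense gene ELF3-AS1, whose own log2 fold change was -0.10 (edgeR adjusted p = 0.698). It shares 664 bases, 9.24% of its length, with ENSG00000249007 on the same strand, which averaged 7.33 counts in HK1-overexpressing and 5.33 counts in Control libraries. ELF1, a broadly expressed activator first known from lymphocytes, lies on the minus strand of chromosome 13 from 40931919 to 41061440. It was at 89.2, 94.1 and 91.3 CPM in HK1-overexpressing libraries and at 89.3, 70.2 and 82.7 CPM in Control libraries. Control replicate 1 reached the HK1-overexpressing range and Control replicate 2 lay far below it, and the log2 fold change of 0.18 (SE 0.0753) was not called.

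ETV6 and GABPA had nearly the same mean in both groups. ETV6, a repressor needed for blood formation, lies on the plus strand of chromosome 12 from 11649674 to 11895377. It was at 8.72, 7.94 and 8.81 CPM in HK1-overexpressing libraries and at 8.55, 8.51 and 8.38 CPM in Control libraries, with a log2 fold change of 0.0016 (SE 0.0964). GABPA, the DNA-binding subunit of GABP, lies on the plus strand of chromosome 21 from 25734570 to 25772460. It was at 22.9, 23.1 and 24.0 CPM in HK1-overexpressing libraries and at 26.7, 19.1 and 24.5 CPM in Control libraries, with a log2 fold change of -0.01 (SE 0.102). Its HK1-overexpressing libraries fell inside the wide Control range. GABPA shares 692 bases of exon, 12.1% of its length, with ATP5PF on the opposite strand, whose log2 fold change was 0.0025 (edgeR adjusted p = 0.989). ETS2, ELK3 and ETV5 share 4.64%, 4.5% and 2.84% of their exon length with genes that averaged at most 8.67 counts per library.

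Of the 10 genes, ETS1, ELK3 and ETV5 were called higher and ETV4 and ELF3 lower by the edgeR quasi-likelihood test at a Benjamini-Hochberg adjusted p under 0.05. Across all 16734 tested genes 8.02% were called, 3.87% higher and 4.15% lower. The groups did not overlap for 7 of the 10 genes, against 27.8% of all tested genes. As the genes were listed with these outcomes known, nothing is read from their shares. All 10 passed the filter on low counts, with between 138 and 2323 counts in a library. Their median log2 fold change was -0.0044, with 5 above and 5 below 0, beside a median of 0.0063 over all tested genes. The calls of ETS1 and ETV4 held in all 16 alternatives tried, with log2 fold changes of 0.83 to 0.99 and of -0.49 to -0.40. The alternatives refit these same libraries, so they too are given as a description. The call of ELK3 held in 14 of the 16 and was lost without HK1-overexpressing replicate 2 or 3 (log2 0.37 and 0.34). That of ELF3 held in 7, and its losses include those without HK1-overexpressing replicate 1, 2 or 3 (log2 -0.175, -0.24 and -0.23). That of ETV5 held in 9, and its losses include those without any 1 library except Control replicate 2 (log2 0.21 to 0.24). ELF1 was called without Control replicate 1 (log2 0.27) and with no filter (log2 0.19).

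The Control libraries varied more than the HK1-overexpressing ones, over all tested genes as well as the 10. Over all tested genes, the chi-square per degree of freedom between HK1-overexpressing libraries was 1.58 to 2.28. It was 11 between Control replicates 1 and 2, 4.95 between 1 and 3, and 4.94 between 2 and 3. Control replicates 1 and 2 thus lay about equally far from replicate 3. The SD relative to the mean was larger in Control libraries for 9 of the 10 genes, all but ETV6. It was 2.28% in HK1-overexpressing and 11% in Control libraries for ETS1, and 2.49% in HK1-overexpressing and 16.6% in Control libraries for GABPA. Control replicate 2 had the lowest Control level of 6 of the genes (ETS1, ETS2, ELF1, ELK3, ETV1 and GABPA) and the highest of ELF3 and ETV4. Without that library the log2 fold change was 0.09 for ELF1, -0.13 for GABPA and 0.29 for ELK3. It was 0.83 for ETS1, -0.40 for ETV4, -0.174 for ELF3, 0.23 for ETV5, -0.25 for ETV1, -0.09 for ETS2 and 0.0074 for ETV6. The calls of ETS1, ELK3, ETV5, ETV4 and ELF3 held. Without Control replicate 1 instead, the call of ETV5 was lost (log2 0.21), and those of ETS1, ELK3, ETV4 and ELF3 held.

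Per kilobase of exon, the members covered a range from ETS2, at 21.7 ± 0.201 RPKM in HK1-overexpressing and 22.9 ± 0.562 RPKM in Control cells, to ETV1, at 0.875 ± 0.0248 RPKM in HK1-overexpressing and 1.01 ± 0.0996 RPKM in Control cells (SD, n = 3 each). The next highest members were ELF1, at 20.6 ± 0.553 RPKM in HK1-overexpressing and 18.2 ± 2.18 RPKM in Control cells, and ELF3, at 13.1 ± 0.611 RPKM in HK1-overexpressing and 15.2 ± 1.00 RPKM in Control cells. ETV4, ETV5, ELK3 and GABPA followed in Control cells, and the ranges of ELK3 and GABPA there overlapped. ETS1 stood at 4.97 ± 0.114 RPKM in HK1-overexpressing and 2.66 ± 0.293 RPKM in Control cells. It thus ranked 11 of 28 ETS genes in HK1-overexpressing and 14 of 28 in Control cells, with ETV6 and ETV1 the only members below it in Control cells. The order between genes depends on the deposited exon lengths. ETS1 made up 3.69% of the summed RPKM of all ETS genes in HK1-overexpressing and 1.93% in Control cells. The summed level of all 28 genes was 130.6, 136.3 and 137.8 RPKM in HK1-overexpressing libraries and 140.7, 134.9 and 137.0 RPKM in Control libraries, ranges that overlap.

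**Figure D3:**
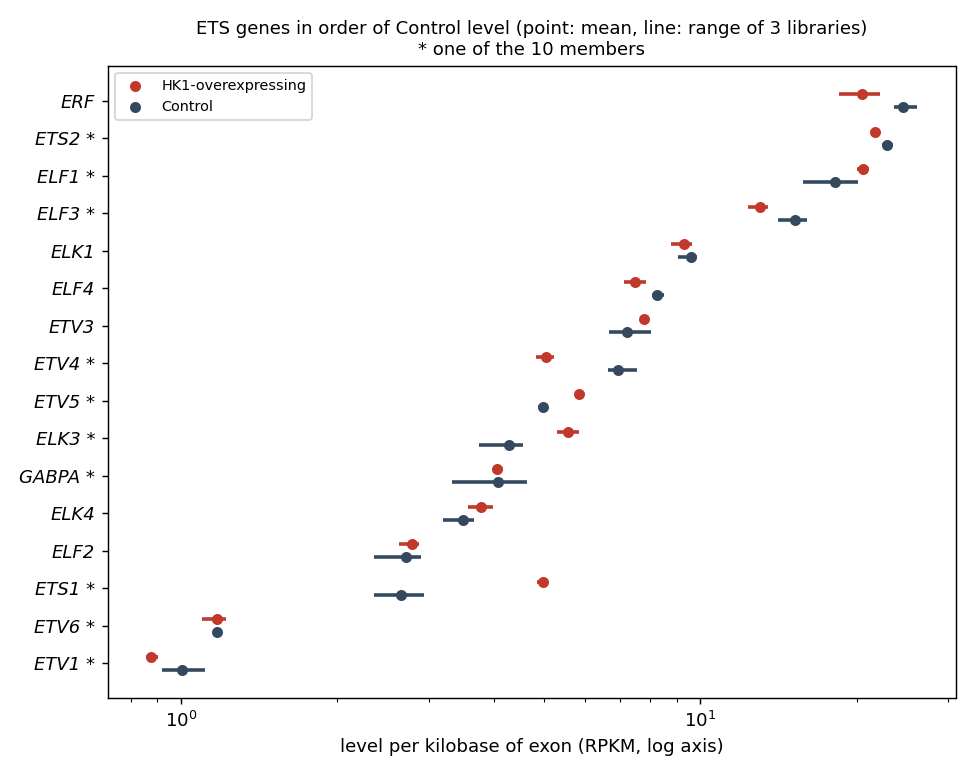
Level per kilobase of exon (RPKM, log axis) of the 16 ETS genes that passed the filter, in order of their Control level from top to bottom, with the mean as a point and the range of 3 libraries as a line, HK1-overexpressing above Control. Stars mark the 10 members. ETS1 has a mean of 4.97 RPKM in HK1-overexpressing and 2.66 RPKM in Control cells, and its ranges lie far apart.

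Of the other 18 ETS genes, 6 passed the filter on low counts, 0 were called higher and 1 was called lower. This was 16.7% of those tested, beside 8.02% of all tested genes. By an unadjusted edgeR p under 0.05, 0 were higher and 2 lower. Over all 16734 tested genes, 1785 were higher and 1882 lower at that threshold. DESeq2 and limma-voom called 0 of these ETS genes higher. The called gene was ERF, a repressor that ERK inactivates, at 60.4, 68.1 and 72.5 CPM in HK1-overexpressing libraries and 78.0, 85.5 and 77.3 CPM in Control libraries. Its log2 fold change was -0.26 (SE 0.0706, edgeR adjusted p = 0.0358), and the groups did not overlap. The call was lost without HK1-overexpressing replicate 1 or 2 or Control replicate 3 (edgeR adjusted p = 0.222, 0.123 and 0.0823), and over all alternatives the adjusted p ran from 0.00429 to 0.222. ERF had the highest Control level of the family per kilobase, 24.5 ± 1.39 RPKM, against 20.5 ± 1.87 RPKM in HK1-overexpressing cells. ELF4, ELF2 and ETV3 had log2 fold changes of -0.14, 0.04 and 0.10 and were not called (edgeR adjusted p = 0.213, 0.841 and 0.429). ETV3 was called higher without Control replicate 1 (log2 0.19). No library had a count of ERG, FLI1, FEV, SPI1, SPIB or SPIC, most of them factors of blood, vessel or nerve cells. A count of 0 allows up to 0.144 to 0.153 CPM in HK1-overexpressing and 0.149 to 0.179 CPM in Control libraries, scaled to library totals and for counting error only. The remaining 6 stood under 0.5 CPM on average in both groups.

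Among 18 partners and regulators of ETS factors, of which 17 were tested, 1 rose and 0 fell in HK1-overexpressing cells. This was 5.88% of those tested, beside 8.02% of all tested genes. RUNX1, a factor that binds DNA together with ETS1, was at 29.8, 30.8 and 29.0 CPM in HK1-overexpressing libraries and 25.6, 21.9 and 23.9 CPM in Control libraries (log2 0.32, SE 0.0749, edgeR adjusted p = 0.0159). The call was lost without any 1 HK1-overexpressing library and without Control replicate 3, where the largest adjusted p was 0.105. At an unadjusted edgeR p under 0.05, 2 were higher and 3 lower, beside 1785 higher and 1882 lower of all 16734 tested genes. DESeq2 and limma-voom called 0 of the list lower. GABPB1, the partner of GABPA, SRF, the partner of ELK3, and CIC had log2 fold changes of -0.05, 0.05 and -0.06 and were not called.

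Of 14 RAS-ERK genes 1 rose and 0 fell, 7.14% of those tested beside 8.02% of all tested genes. SOS1, which loads RAS with GTP, was at 129.3, 125.5 and 132.4 CPM in HK1-overexpressing libraries and 112.7, 92.9 and 107.1 CPM in Control libraries (log2 0.31, SE 0.0660, edgeR adjusted p = 0.00999). Its call was lost without HK1-overexpressing replicate 1 or 3 (edgeR adjusted p = 0.0531 and 0.0705). At an unadjusted edgeR p under 0.05, 1 was higher and 0 lower, beside 1785 higher and 1882 lower of all 16734 tested genes. DESeq2 and limma-voom also called 0 of the list lower. MAPK3, an ERK kinase, had a log2 fold change of 0.08 and was not called.

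Of 11 tested ERK feedback and CIC target genes, edgeR, DESeq2 and limma-voom called 0 in either direction. With edgeR this was 0% of those tested, beside 8.02% of all tested genes. For 11 genes a count of 0 is close to that share. At an unadjusted edgeR p under 0.05, 1 was higher and 3 lower, beside 1785 higher and 1882 lower of all 16734 tested genes. DUSP4, an ERK phosphatase, had a log2 fold change of -0.22 (SE 0.0670, edgeR adjusted p = 0.0573) and DUSP5, another, of 0.18 (SE 0.0573, edgeR adjusted p = 0.0765). Each was called when a Control library was left out, DUSP4 without replicate 2 (log2 -0.25) and DUSP5 without replicate 1 (log2 0.22). DUSP5 was also called with library totals only, a stricter filter and quality weights (edgeR or limma adjusted p = 0.0342, 0.0477 and 0.0322). The median log2 fold change of the list was -0.06.

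Of 23 genes described as ETS targets in invasion and vessel growth, 11 were tested, of which 4 were called higher and 0 lower, 36.4% of those tested beside 8.02% of all genes. That count includes TIMP1, which passed the filter on low counts only through its HK1-overexpressing libraries, a route that favours genes higher in that group. As the list was chosen with earlier results of these data known, nothing is read from the share called. The 11 tested genes, TIMP1 among them, had a median log2 fold change of 0.15, with 9 above 0 and 2 below. Over all 16734 tested genes the median was 0.0063, with 8604 above 0 and 8130 below. For the same reasons, nothing is read from the direction of the list. PLAU, the plasminogen activator urokinase, was at 12.04, 9.62 and 10.8 CPM in HK1-overexpressing libraries and 5.83, 7.39 and 7.59 CPM in Control libraries (log2 0.65, SE 0.122, edgeR adjusted p = 0.00439). SPP1, the secreted protein osteopontin, was at 261.6, 249.6 and 254.2 CPM in HK1-overexpressing libraries and 198.6, 184.2 and 212.1 CPM in Control libraries (log2 0.36, SE 0.0555, edgeR adjusted p = 0.000924). Neither of these genes overlapped between the groups. TIMP1, an inhibitor of metalloproteinases, had 44, 36 and 33 counts in HK1-overexpressing and 15, 6 and 8 counts in Control libraries, which is given as a description. MMP3, MMP9 and KDR had no count in any library. At an unadjusted edgeR p under 0.05, 6 were higher and 0 lower, beside 1785 higher and 1882 lower of all 16734 tested genes. The 6 include TIMP1. DESeq2 and limma-voom called 0 lower. DESeq2 called 3 higher, with no adjusted p for TIMP1.

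Of 8 tested targets of SRF and its ternary complex factors, 2 rose and 0 fell, 25% of those tested beside 8.02% of all tested genes. This list too was chosen with earlier results of these data known, so nothing is read from that share. JUNB, a subunit of AP-1, was at 30.7, 34.2 and 35.4 CPM in HK1-overexpressing libraries and 24.4, 21.8 and 20.9 CPM in Control libraries (log2 0.58, SE 0.0806, edgeR adjusted p = 0.000462). FOSB, another AP-1 subunit, was at 3.43, 3.99 and 3.41 CPM in HK1-overexpressing libraries and 2.36, 2.41 and 2.37 CPM in Control libraries (log2 0.60, SE 0.158, edgeR adjusted p = 0.0308). Its call was lost with DESeq2, with Control replicate 3 left out and with any 1 HK1-overexpressing library left out, where the largest adjusted p was 0.171. FOS, a gene of the same complex, had a log2 fold change of 0.10 and was not called (edgeR adjusted p = 0.797). At an unadjusted edgeR p under 0.05, 3 were higher and 0 lower, beside 1785 higher and 1882 lower of all 16734 tested genes. DESeq2 and limma-voom called 0 lower.

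Of 10 genes described as GABP targets 0 rose and 1 fell, 10% of those tested beside 8.02% of all tested genes. Their median log2 fold change was -0.04. TYMS, thymidylate synthase, was at 64.9, 65.1 and 68.6 CPM in HK1-overexpressing libraries and 83.3, 75.0 and 76.0 CPM in Control libraries (log2 -0.24, SE 0.0600, edgeR adjusted p = 0.0251). Its call was lost without any 1 HK1-overexpressing library and without Control replicate 3, where the largest adjusted p was 0.148. TFAM, the mitochondrial transcription factor, had a log2 fold change of 0.0064 and was not called. By an unadjusted edgeR p under 0.05, 0 were higher and 3 lower, beside 1785 higher and 1882 lower of all 16734 tested genes. DESeq2 and limma-voom called 0 higher.

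**Figure D4:**
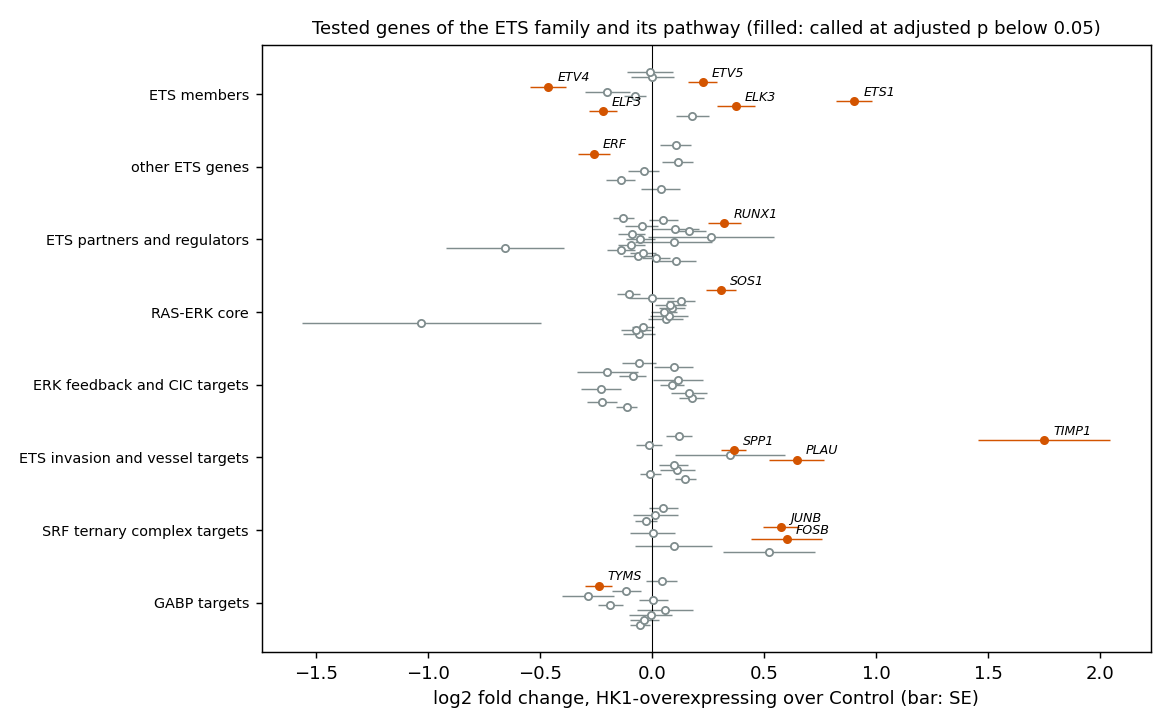
Log2 fold change of HK1-overexpressing over Control (horizontal axis) with its SE for each tested gene of the 10 ETS genes, the other ETS genes and 6 lists of the pathway (rows). Filled, named points are genes called at an adjusted p under 0.05, among them ETS1 at 0.90, ETV4 at -0.46 and JUNB at 0.58, and open points are genes not called. Of the RAS-ERK and the invasion and vessel lists, 1 tested gene each is not drawn.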

How the data were processed

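RNA-seq libraries of 3 HK1-overexpressing and 3 Control Huh7 samples were compared. TRIZOL was used for extraction and a stranded mRNA kit for the libraries, per the labels' protocols. The authors deposited raw counts for each gene name, made with featureCounts 1.5.3 over exons in paired mode with GENCODE release 47, per the file headers. The recorded command sets no strand option and no option for fragments of several places or genes. Trim Galore, Subread and hg38 are named in the submitters' processing notes.

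Counts were normalized by TMM and filtered with filterByExpr, which left 16734 genes, and groups were compared with edgeR 4.0.16 (robust quasi-likelihood test, group as the only term, Benjamini-Hochberg over all tested genes) in R 4.3.3. CPM are counts over the library total times its TMM factor, and RPKM divide CPM by the deposited exon length in kilobases. Log2 fold changes give HK1-overexpressing relative to Control. SE are the unshrunken coefficient over the square root of the F statistic and are approximate. Nearness to ETS1 used log2(CPM + 0.5). The fit was tested on simulated counts with the same dispersion in both groups. The real Control libraries varied more, so that test does not cover this difference. Alternatives included DESeq2 1.42.0, limma-voom (limma 3.58.1), other scalings and filters, a replicate block and leaving out each library.

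Named genes are HK1, the 10 members, tested ETS genes, up to 4 called genes of each list by p (the 2 of smallest p where none was called), and the 5 genes nearest to ETS1. The values of 1 gene each of the RAS-ERK and the invasion and vessel lists are not reported here, although the counts include them. Other genes were named after their values were seen. Members and lists were chosen with earlier results of these data known. Protein sequences were not used here.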

Additional observations from a re-analysis of the deposited data

How the results depend on the processing

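Over all genes 648 were called higher and 694 lower. With library totals only, 907 were higher and 462 lower. With limma-voom and library quality weights, 902 were higher and 1048 lower. Leaving out each library gave 286 to 1172 higher and 250 to 1085 lower calls. These counts were 300 and 254 without HK1-overexpressing replicate 1, 286 and 250 without replicate 2, and 295 and 303 without replicate 3. They were 1172 and 1085 without Control replicate 1, 835 and 983 without Control replicate 2, and 371 and 438 without Control replicate 3. Leaving out each library gave 1 to 3 higher and 1 to 2 lower calls among the 10 ETS genes. With library totals only, the stricter filter (mean CPM of 5 or more), limma-voom with or without quality weights, no robust dispersion or the replicate block, 1 of them was called lower, and ETV4 was that gene. ETV5 was not called with DESeq2 or the replicate block (log2 0.23 in both). The other ETS genes had 0 lower calls with library totals only, the stricter filter, limma-voom and no robust dispersion, and 0 to 1 calls either way when a library was left out. Among partners and regulators, quality weights gave 2 higher and 1 lower, no filter gave 1 lower, and leaving out a library gave 0 to 1 higher and 0 to 1 lower. For RAS-ERK genes quality weights gave 1 lower, and leaving out a library gave 0 to 2 higher. ERK feedback and CIC targets had 1 higher call with library totals only, the stricter filter and quality weights, and 0 to 1 either way when a library was left out. Invasion and vessel targets had 5 higher with library totals only, 3 with DESeq2, and 4 to 5 when a library was left out. SRF targets had 1 higher with the stricter filter, DESeq2 and the replicate block, and 1 to 2 when a library was left out. GABP targets had 0 lower with library totals only and the replicate block, 2 with quality weights, and 0 to 2 when a library was left out. The cause of these changes was not tested.

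Values near 0 changed sign without being called. ETV6 was at -0.00087 with limma-voom, -0.0093 with quality weights and -0.0267 to 0.0479 with a library left out. GABPA was at 0.0282 with library totals only, 0.0022 with no filter, 0.0043 with the stricter filter, 0.0013 with limma-voom and -0.13 to 0.10 with a library left out. ELF2 was at -0.0467 without Control replicate 2, within -0.0467 to 0.0967 over the libraries left out. ELK1 was at 0.0017 with library totals only and 0.0086 without HK1-overexpressing replicate 1, within -0.0734 to 0.0086 over the libraries left out. Library totals only moved the median over all genes to 0.05.

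Same-numbered libraries correlated at -0.0419, 0.0587 and -0.219 in their deviations from the group means. Replicate 2 correlated best with its own number, and replicates 1 and 3 did not. With 3 libraries per group, such correlations cannot decide whether the numbers pair the samples. With the replicate block 563 genes were higher and 511 lower. Counts under 50, as for TIMP1, limit the precision of such genes.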
